A study of Mus musculus with 8 samples.

Results

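Mouse thymocytes that became CD4- CD8- double-negative (DN) cells in culture were measured in 4 RNA sequencing libraries, out of 8 in the series. They were chosen by their labels, which name the in vitro condition, and the measured features are the genes with an FPKM of at least 1 in at least 2 of the 4 libraries. FPKM is a fragment count scaled to the length of the transcript and the depth of the library. The deposited tables list 12133 genes in vitro, of which 9658 passed that filter and 2475 did not. Sorted CD4+ CD8+ double-positive thymocytes were cultured with antibodies to CD3 and CD28, each at 8 µg/ml, for 24 h, and the cells that were DN afterwards were sorted for RNA. The libraries labelled WT came from Bcl6fl/fl thymocytes and those labelled KO from Bcl6fl/fl Cd4cre thymocytes, with 2 libraries in each group. All 4 libraries therefore carry loxP-flanked Bcl6 alleles, and the controls lack the Cre recombinase, so effects of Cre and of the loss of Bcl6 cannot be told apart. Cd4-cre becomes active by the double-positive stage, which is the stage that was put in culture. The other 4 libraries of the series, 2 of Bcl6fl/fl and 2 of Bcl6fl/fl Cd4cre, are CD4- CD8- CD5+ TCRβ+ thymocytes sorted directly from mice. They were used for the test of difference, for a test of the in vivo effect alone and for an alternative fit of all 8 libraries. The labels give no age. They also do not say whether replicates are separate mice or cultures, and the p-values therefore reflect the spread among these libraries alone, part or all of which may be technical.

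Bcl6 encodes a zinc-finger repressor of transcription that recruits corepressors such as NCOR and BCOR through its BTB domain. It recognizes DNA that resembles the sites of STAT factors. In the thymus it is expressed in double-positive cells, and strong T cell receptor signals at that stage drive agonist selection, in which some cells lose both coreceptors and become precursors of intestinal intraepithelial lymphocytes. Stimulation of double-positive cells in a dish mimics part of that step, because the cells turn off CD4 and CD8 while they receive the signal. The comparison asks which transcripts differ between cells of the 2 genotypes after this stimulation.

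Bcl6 itself was higher in the libraries labelled KO. Its FPKM was 24.9 and 21.9 (WT label) and 64.6 and 61.0 (KO label), with n = 2 per group. The log2 fold change was 1.45 (SE 0.09), with an adjusted p of 1.53e-06 by edgeR's quasi-likelihood test. Both libraries labelled KO lay above both labelled WT, as they did at 32.5% of all tested genes. The deposited value pools all exons of the gene, so transcripts with and without the deleted exons are counted together and this value checks neither the deletion nor the labels. For this reason the groups are named by their labels throughout. In mm10 (GENCODE vM21) it spans 23965052 to 23988852 of chromosome 16, minus strand.

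The annotation holds 49 other genes within 1 Mb of Bcl6, 13 of them protein-coding, of which 6 had a row in the in vitro tables and 5 were tested. Lpp, which encodes a scaffold protein of focal adhesions and starts 404.7 kb from the start of Bcl6, had an FPKM of 0.206 and 0.272 (WT label) and 2.09 and 1.71 (KO label). Its log2 fold change was 3.04 (SE 0.16, adjusted p = 7.55e-07), but it passed the expression filter through the KO label alone and therefore had to differ. St6gal1, a sialyltransferase 764.1 kb away on the other side, rose from 33.6 and 37.6 to 57.3 and 54.8 FPKM (log2 fold change 0.68, SE 0.09). Eif4a2, a translation initiation helicase 881.4 kb away, fell from 82.5 and 78.2 to 66.0 and 64.5 (-0.27, SE 0.09), a call that was lost with the replicate block (adjusted p = 0.103) and without WT replicate 1 or either library labelled KO. Rfc4, a clamp loader subunit, did not pass (0.04, SE 0.14). The predicted gene Gm37419, named here although the rule passes over predicted genes, lies from 23988482 to 23988595 within the span of Bcl6 on the opposite strand. Its counts were 7 and 7 (WT label) and 33 and 26 (KO label). The strand setting of the counting is not given in the sources used here, so its reads and those of Bcl6 cannot be told apart. Rtp4, an interferon-induced gene, was below the filter. Lpp was the only tested gene on its side of Bcl6. On the other side St6gal1 rose and Eif4a2 fell, with Rfc4 between them not past the threshold.

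**Figure D1:**
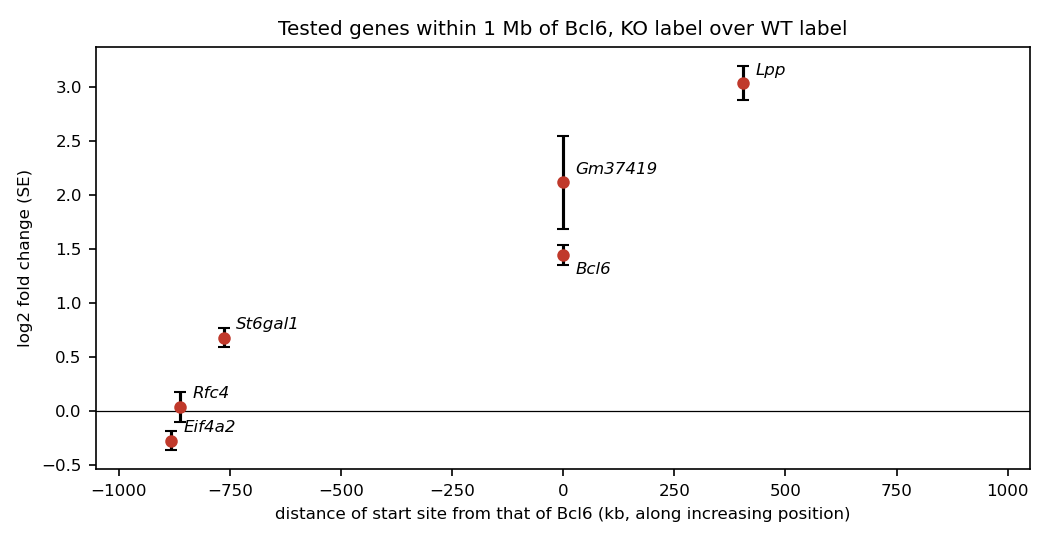
Log2 fold change (KO label over WT label, edgeR, bars are SE) of the tested genes within 1 Mb of Bcl6 against the distance of their start sites from that of Bcl6 in kb. Lpp has the highest point at 3.04, Bcl6 lies at 1.45, Rfc4 near 0 and Eif4a2 at -0.27.

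The bases before the start sites of Bcl6 and of 3 genes described below are shown because they hold letters like those that Bcl6 and STAT factors recognize. Of the 9658 tested genes 7857 matched the RefSeq table of start-site windows (GRCm38.p6). Motifs were searched on both strands in the 250 bases before each start. The strict motif TTCCTNGAA was in 1.31% of all windows in the table and 0.941% of those of tested genes. It was in 0.942% of the windows of genes that rose and 0.837% of those of genes that fell. The looser motif TTCNNNGAA, which contains the strict one, was in 7.02%, 5.8%, 6.22% and 5.98% of the same sets. At genes that rose at least 2-fold the strict motif was in 4 of 336 windows (1.19%) and the looser one in 25 (7.44%), and at those that fell at least 2-fold in 2 of 96 (2.08%) and in 6 (6.25%). These shares are descriptions and were not tested. Each sequence is 160 bases 5′ to 3′ on the gene's strand, clear of annotated exons, with motif matches in capitals. The upstream start of Bcl6 has 1 loose match (chr16:23988943-23989102, minus strand) and its downstream start, inside the gene, has a strict match and a further loose one in the printed stretch (chr16:23981374-23981533, minus strand). Of the 20 genes that rose most and the 20 that fell most, named below, only 13 and 18 matched a window and could be searched. Among these, Nkg7 alone had a strict match (chr7:43436888-43437047, plus strand), while Il7r (chr15:9529881-9530040, minus strand) and Cd160 (chr3:96814612-96814771, minus strand) had a loose one. The printed stretches of Il7r and Cd160 lie inside the spans of these genes in GENCODE vM21. A match is a description of the letters and not a site shown to be bound.
Bcl6, upstream start: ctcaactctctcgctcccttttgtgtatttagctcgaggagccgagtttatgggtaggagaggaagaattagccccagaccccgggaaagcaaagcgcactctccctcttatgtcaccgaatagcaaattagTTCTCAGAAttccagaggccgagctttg
Bcl6, downstream start: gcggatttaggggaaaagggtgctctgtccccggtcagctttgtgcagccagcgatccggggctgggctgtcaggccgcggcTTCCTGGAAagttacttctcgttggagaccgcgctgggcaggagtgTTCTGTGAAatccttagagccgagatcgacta
Il7r: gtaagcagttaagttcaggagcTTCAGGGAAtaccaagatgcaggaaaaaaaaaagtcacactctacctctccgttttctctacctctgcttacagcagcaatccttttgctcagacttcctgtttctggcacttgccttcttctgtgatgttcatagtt
Nkg7: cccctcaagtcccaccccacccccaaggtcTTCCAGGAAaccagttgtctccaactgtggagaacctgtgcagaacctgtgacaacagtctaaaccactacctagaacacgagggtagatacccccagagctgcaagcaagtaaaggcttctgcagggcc
Cd160: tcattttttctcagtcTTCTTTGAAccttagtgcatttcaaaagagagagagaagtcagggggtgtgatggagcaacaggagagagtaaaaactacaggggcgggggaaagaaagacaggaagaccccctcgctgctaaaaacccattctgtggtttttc

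The cells had the transcripts of alpha beta T cells, and those of other lineages were low or absent from the tables. Total counts ranged from 15644567 to 23975636 per library, the mitochondrial share from 1.83% to 2.06% under the WT label and from 1.49% to 1.69% under the KO label, and the share of ribosomal protein genes from 5.09% to 6.48%. The 10 of 13 alpha beta T cell markers with a row summed to 1344 and 1254 FPKM (WT label) and 1510.2 and 1527 (KO label), and the double-positive list (14 of 15 with a row) to 228 and 245 against 288 and 262. The recombinase genes Rag1 and Rag2 were at 0.643 FPKM or less in every library. Although the cells were sorted as DN, Cd4 transcript was at 6.84 and 6.98 and 10.9 and 11.4 FPKM and Cd8a at 9.67 and 10.9 and 7.78 and 7.26 in the groups labelled WT and KO. The calls of both (log2 fold changes 0.72 and -0.42) were lost in the fit of all 8 libraries. Markers of other cells summed to 2.89 to 3.05 FPKM under the WT label and 5.13 to 5.96 under the KO label for B cells (3 of 11 with a row), and to 51.0 to 54.8 against 47.1 to 50.8 for myeloid and dendritic cells (7 of 15). They summed to 16.2 to 18.0 against 29.4 to 31.0 for thymic stroma (6 of 13, mostly Pecam1, which T cells also express), 47.6 to 48.3 against 60.4 to 65.7 for regulatory T cells (7 of 7) and 13.01 to 16.5 against 30.3 to 34.6 for early DN thymocytes (8 of 11). Single members carried the rise of the last 2 of these sums. Izumo1r, a folate receptor relative, was at 10.6 and 11.8 against 32.7 and 33.8 FPKM in the regulatory T cell list, whose defining gene Foxp3 was at 0.468 or less in every library. Of the 5 tested members of that list 2 rose and 1 fell, and Tnfrsf18 was at 22.6 and 20.7 against 15.2 and 19.3. In the early DN list Il7r had the largest rise in FPKM, from 5.33 and 8.83 to 27.9 and 24.6. Kit (0.664 and 0.989 against 2.76 and 1.84) and Notch3 (0.742 and 0.832 against 1.79 and 1.44) were also higher under the KO label, while Il2ra and Lyl1 were lower. Of its 4 tested members 3 rose and 1 fell, but Kit and Notch3 passed the expression filter through the KO label alone. For gamma delta T cells (2 of 9) the sums were 0.570 or less, for innate-like T and NK cells (2 of 11) 2.05 or less, and the defining genes of those 2 lists, Trdc, Klrb1c and Ncr1 among them, had no row. The erythroid list (4 of 8) moved with the replicate number and not with the label, at 2.14 and 13.9 FPKM (WT label) and 3.94 and 14.6 (KO label). Among the lists of other cells, those of early DN, regulatory T, innate-like T and NK, B and stromal cells had higher sums in both libraries labelled KO than in both labelled WT, and the myeloid list lower ones. Their part in the results below was not tested. Fewer cells of a type and less RNA per cell cannot be told apart in these bulk libraries.

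The response was broad and mostly small. Of the 9658 genes 1940 rose (20.1%) and 1709 fell (17.7%) in the libraries labelled KO, at an adjusted p under 0.05 by edgeR, and 37.8% changed either way. Without WT replicate 1 these counts were 1356 and 1108. The median log2 fold change was 0.54 among genes that rose and -0.44 among those that fell, and -0.0028 over all tested genes. At least 2-fold changes were more often upward, with 331 genes (3.43%) against 112 (1.16%), as were those of at least 4-fold, with 49 against 11. The FPKM of the groups did not overlap at 6869 genes (71.1%), with the libraries labelled KO higher at 3140 (32.5%) and lower at 3729 (38.6%), so absence of overlap alone says little about a gene. In all, 157 genes reached an FPKM of 1 in both libraries labelled KO and in neither labelled WT, and 73 the reverse. Such genes passed the expression filter through 1 group alone and therefore had to differ. Among those named in the text they are Lpp, Kit, Irak3, Runx3, Zbtb7b, Cdc6, Myo1f, Notch3, Abcg1, Atf3, Cx3cr1, Il18r1, Nod1 and Igfbp4. The list counts below include such members.

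**Figure D2:**
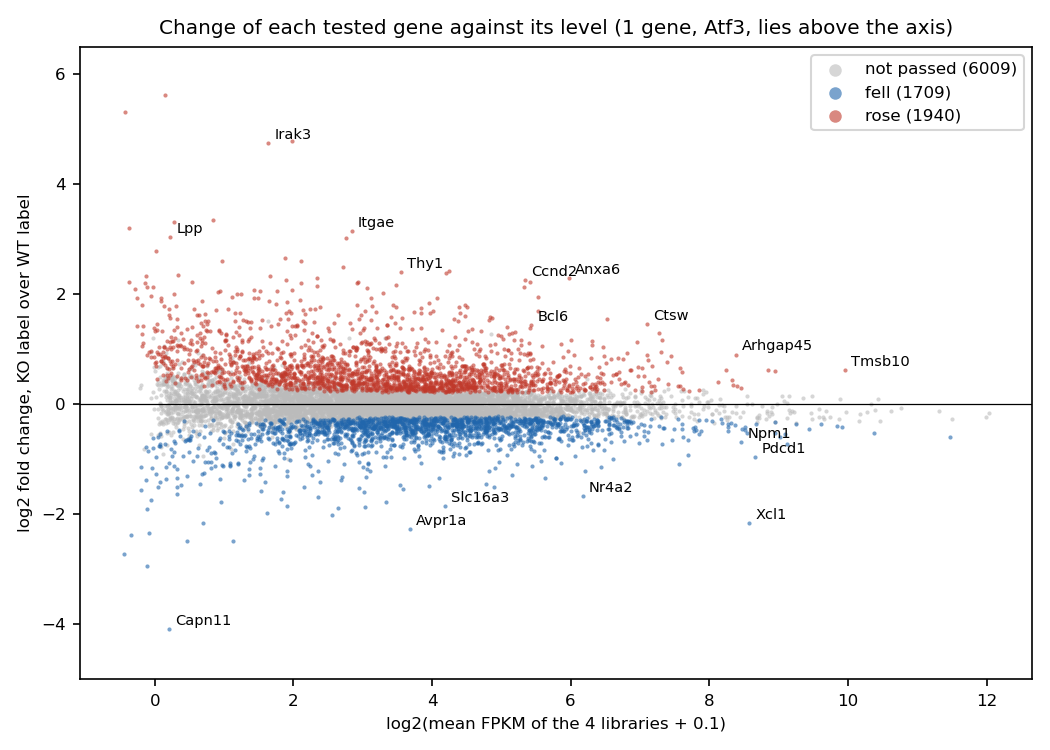
Log2 fold change of each of the 9658 tested genes (edgeR, KO label over WT label) against log2 of its mean FPKM plus 0.1 over the 4 libraries, coloured by call. The genes that rose reach higher fold changes than those that fell, and changes past 2-fold lie mainly at low and middle levels.

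Several integrin and chemoattractant receptor genes were higher under the KO label. Itgae, which encodes the CD103 integrin chain (chromosome 11, 73090583 to 73147446), had an FPKM of 1.44 and 1.47 (WT label) and 14.04 and 11.4 (KO label). Its partner Itgb7 had 4.65 and 7.62 and 31.8 and 31.4. The chemokine receptor Ccr9, which guides cells to the small intestine, had 16.6 and 21.8 and 79.9 and 66.3. Levels of these 3 were 8.90-fold (log2 fold change 3.15, SE 0.13), 5.34-fold and 3.89-fold higher under the KO label. All 3 were chosen for large changes without overlap of the groups. Gpr18, a lipid-sensing receptor of intraepithelial lymphocytes, rose from 2.31 and 3.19 to 13.8 and 11.01 FPKM, a log2 fold change of 2.22 (SE 0.19). Itgb8, the integrin chain that activates latent TGF-beta, went the other way, from 11.2 and 13.002 to 3.74 and 4.14 (-1.59, SE 0.10), although it is not a member of the integrin list. In the list of integrins and adhesion molecules 60.9% rose and 8.7% fell, against 20.1% and 17.7% of all genes. There 14 of 23 tested genes rose and 2 fell, with a median of 0.30. These include the platelet-type integrin chain Itgb3 (2.06, SE 0.13) and the tetraspanin Cd82 (1.08, SE 0.10), while the nectin-like receptor Crtam fell by 1.12 (SE 0.14). Of 15 chemoattractant receptors 10 rose and 1 fell (66.7% and 6.67%), with a median of 1.34. S1pr1 and S1pr4, receptors for sphingosine-1-phosphate, went from 4.96 and 7.03 to 32.2 and 29.1 and from 14.02 and 15.9 to 33.2 and 40.6 FPKM. Ccr7, the receptor for lymph node and medullary chemokines, rose by 1.65 (SE 0.16), Cxcr6 by 1.88 (SE 0.25) and Ccr4 by 1.39 (SE 0.09). Cxcr4, the chemokine receptor of cortical thymocytes, fell by 0.27 (SE 0.09), a call lost with DESeq2 (adjusted p = 0.0558), with the replicate block and without either library labelled WT or KO replicate 2.

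The machinery of cell movement rose with these receptors. Of 35 tested genes of the actin and migration machinery 29 rose and 1 fell (82.9% against 20.1% of all genes), with a median of 0.51. Vim, the intermediate filament vimentin, had an FPKM of 13.4 and 16.9 (WT label) and 64.5 and 65.7 (KO label, 4.38-fold, log2 fold change 2.13, SE 0.11). Changes of abundant members were smaller in fold and large in FPKM. The thymosins Tmsb10 and Tmsb4x, which bind actin monomers, went from 829.9 and 751 to 1149 and 1247 and from 359 and 373 to 582 and 529.9 FPKM, the Arp2/3 regulator Coro1a from 393 and 403 to 539.7 and 647, and the GTPase-activating protein Arhgap45 from 233 and 238 to 419 and 446. The exchange factors Arhgef1 and Arhgef18 rose by 0.87 (SE 0.11) and 1.37 (SE 0.10), and the unconventional myosin Myo1f by 2.04 (SE 0.20). The member that fell was Rgs16, which shuts down chemokine receptor G proteins, from 138 and 125 to 63.0 and 65.8 FPKM. Actb, Actg1 and Ezr did not pass (-0.12, -0.34 and -0.00). Capg, which caps actin filaments and is in none of the lists, rose from 3.77 and 4.02 to 16.1 and 15.0 FPKM. Of 15 annexins, S100 proteins and galectins 13 rose (86.7%) and none fell, with a median of 0.73. Anxa6, a calcium-dependent membrane binder, went from 20.4 and 22.7 to 106 and 102 FPKM (4.93-fold, log2 fold change 2.30, SE 0.09), and its relatives Anxa2 and Anxa5 rose by 1.36 (SE 0.12) and 0.73 (SE 0.09). S100a10, the partner of Anxa2, went from 84.2 and 96.7 to 239 and 197, and Lgals1 from 20.2 and 20.7 to 52.0 and 45.3. For each gene of this paragraph given by its library values, both libraries labelled KO lay on 1 side of both labelled WT. The same held at 71.1% of all tested genes.

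Most tested genes of the late maturation list rose. Of 21 tested members 16 rose and none fell (76.2% rose against 20.1% of all genes), with a median of 0.97. Klf2, the transcription factor of egress, had 13.2 and 17.5 and 70.7 and 69.4 FPKM under the WT and KO labels, Il7r, the interleukin-7 receptor, 5.33 and 8.83 and 27.9 and 24.6, and Ms4a6b, a membrane protein of maturing T cells, 4.45 and 5.27 and 17.6 and 15.6. The related factors Klf3 and Klf13 rose by 1.46 (SE 0.12) and 0.66 (SE 0.09). Thy1, the surface glycoprotein that marks T lineage cells, went from 3.06 and 4.56 to 20.9 and 18.0 FPKM (5.29-fold, log2 fold change 2.40, SE 0.16). Plac8, a small cysteine-rich protein of lymphocytes, had 1.05 and 1.999 and 14.2 and 9.40, with the wider spread of the 2 genes. Of 8 Gimap GTPases, which support survival of T cells, 4 rose (50.0%) and none fell. Gimap4 led, with 2.77 and 5.10 and 10.95 and 13.5 FPKM. Among double-positive markers Dntt, the terminal transferase, fell by 1.01 (SE 0.17) and the immature surface antigen Cd24a by 0.84 (SE 0.08), while Satb1, a chromatin organizer, rose by 0.74 (SE 0.12). Of the 12 tested markers of double-positive cells 6 rose and 3 fell. The call of Dntt was lost in the fit of all 8 libraries.

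**Figure D3:**
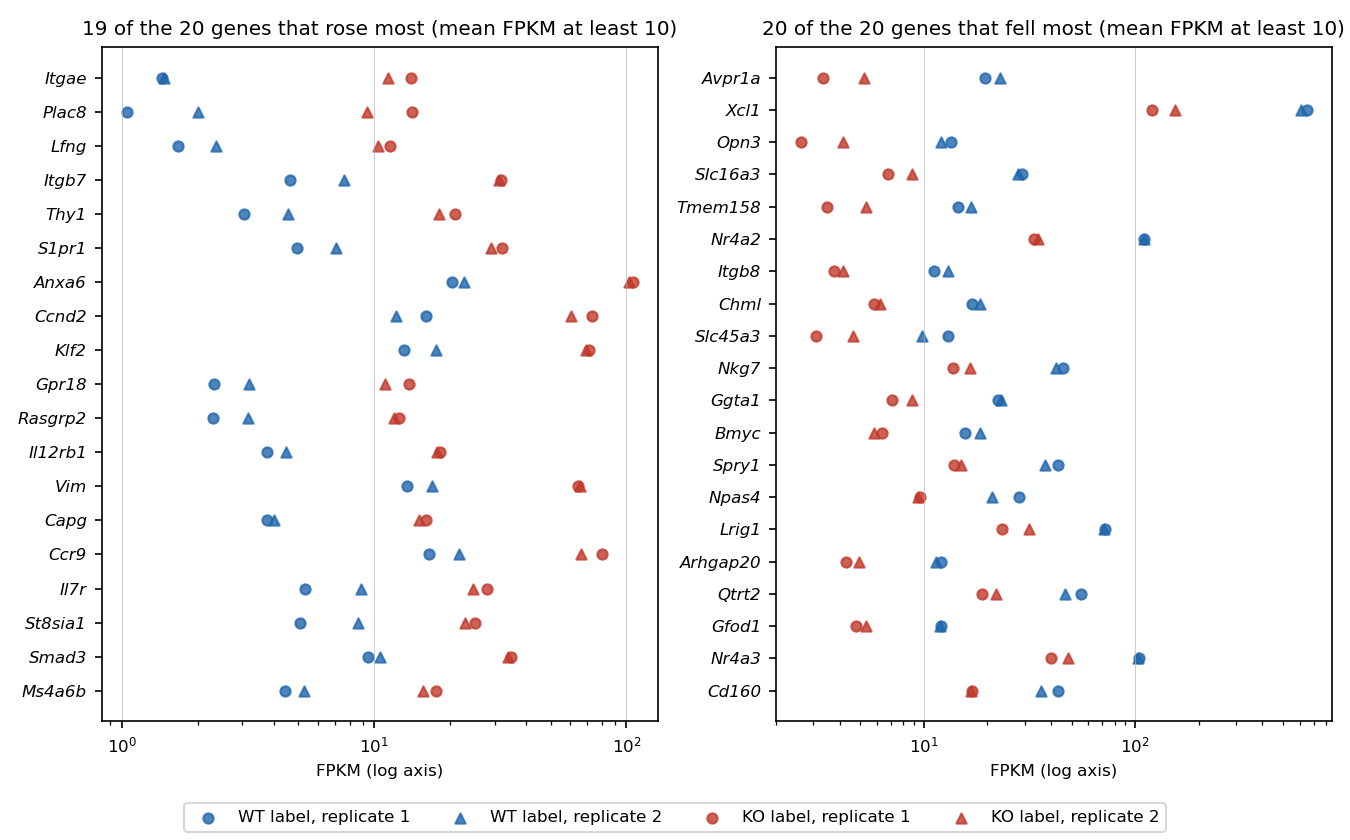
FPKM (log axis) in each of the 4 libraries of 19 of the 20 genes that rose most and the 20 that fell most, ordered by log2 fold change, among those past the threshold without overlap and with a mean FPKM of at least 10 in the higher group. Blue is the WT label and red the KO label, with circles for replicate 1 and triangles for replicate 2. The gap between colours follows from this choice of genes and supports nothing.

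The genes that fell most were of varied function. Xcl1, the chemokine lymphotactin, was at 648 and 606 FPKM (WT label) and 120.5 and 154 (KO label), 4.48-fold lower (log2 fold change -2.16, SE 0.11), the most abundant of the 20. Avpr1a, a vasopressin receptor (chromosome 10, 122448499 to 122453452), went from 19.4 and 23.01 to 3.34 and 5.19 (4.82-fold lower, log2 fold change -2.27, SE 0.17). Slc16a3, the lactate exporter MCT4, went from 29.1 and 27.9 to 6.74 and 8.79. The 20 were chosen for groups that do not overlap, so the separation of their groups was set in advance. Opn3, an extraocular opsin, and Chml, a Rab escort protein, fell by 1.87 (SE 0.18) and 1.53 (SE 0.09). These 2 genes overlap on the minus strand of chromosome 1, so the split of reads between them is uncertain. Spry1, an inhibitor of Ras signalling, fell from 43.1 and 37.4 to 13.97 and 15.0, Lrig1, a feedback inhibitor of growth factor receptors, from 71.9 and 70.9 to 23.4 and 31.6, and Npas4, an activity-induced transcription factor best known from neurons, from 28.1 and 21.1 to 9.57 and 9.42. Nkg7, a granule membrane protein, and Cd160, an inhibitory receptor of intraepithelial and NK cells, went from 45.6 and 42.1 to 13.7 and 16.6 and from 43.0 and 36.0 to 16.9 and 16.7. The other members were Tmem158, Slc45a3, Ggta1, Bmyc, Arhgap20, Qtrt2, Gfod1, Nr4a2 and Nr4a3, with log2 fold changes from -1.78 to -1.21.

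T cell receptor signalling split by its parts. Genes of the receptor-proximal machinery were higher: of 34 tested 19 rose and 2 fell, with a median of 0.27. These shares were 55.9% and 5.88%, against 20.1% and 17.7% of all genes. The adaptor Grap2 went from 16.5 and 21.5 to 45.0 and 43.7 FPKM (log2 fold change 1.25, SE 0.11). The Tec kinase Txk rose by 1.17 (SE 0.12), the adaptor Skap1 by 0.88 (SE 0.09) and the zeta chain Cd247 by 0.70 (SE 0.09), whereas Zap70 and Cd3g did not pass (-0.05 and -0.06). Sla, an adaptor that promotes receptor breakdown, fell by 0.50 (SE 0.08). Of 25 calcium and ion channel genes 13 rose and 1 fell (52.0% and 4.0%), with a median of 0.40. The inositol trisphosphate receptor Itpr3 rose by 1.47 (SE 0.09), the calcium channel subunit Orai2 by 1.13 (SE 0.11) and the kinase Camk4 by 1.01 (SE 0.11). Rasgrp2, a calcium-regulated exchange factor for Rap1, had 2.29 and 3.15 and 12.6 and 11.9 FPKM. Its relative Rasgrp1 did not pass (0.13).

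Genes that signalling induces went both ways, with a larger share that fell than among all genes. Of 20 AP-1, Egr and immediate early genes 4 rose and 6 fell. The share that rose was near that of all genes (20.1%), and the share that fell was above it (17.7% of all genes). Among the 4, Atf3 passed the expression filter through the KO label alone and therefore had to differ. The orphan nuclear receptors Nr4a2 and Nr4a3 were at 109.9 and 110.3 and at 104 and 104 FPKM in the WT-labelled libraries, and at 33.1 and 34.7 and at 40.0 and 48.1 in the KO-labelled ones. Egr3, an early growth response factor, went up instead, from 6.66 and 6.03 to 20.3 and 19.9 (1.69, SE 0.09), and Egr1 and Egr2 did not pass (-0.08 and 0.19). Of 16 MAPK feedback genes 4 rose and 6 fell, again with only the share that fell well above that of all genes. Rasa3, a Ras and Rap GTPase-activating protein, rose by 1.59 (SE 0.10) and the ETS factor Etv5 by 1.53 (SE 0.10), while the phosphatase Dusp4 fell by 0.97 (SE 0.15) and Dusp6 did not pass (-0.04). Of 23 NF-kB genes 12 fell and 2 rose (52.2% fell against 17.7% of all genes), with a median of -0.23. All 3 of the subunit genes Rel, Relb and Nfkb2 fell, from 22.7 and 22.5 to 13.4 and 12.4, from 36.1 and 32.5 to 20.3 and 24.3 and from 64.3 and 62.4 to 29.8 and 40.1 FPKM. The inhibitor Nfkbia and the subunit Nfkb1 fell by 0.43 (SE 0.10) and 0.45 (SE 0.09), Rela did not pass (0.05), and the inducible kinase Ikbke rose by 0.72 (SE 0.09).

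Inhibitory receptors were divided as well. Of 14 coinhibitory receptors 6 rose and 6 fell (42.9% each, against 20.1% and 17.7% of all genes). Pdcd1, which encodes PD-1, had the highest mean FPKM of the list, at 547 and 531 FPKM (WT label) and 248 and 298 (KO label), and fell by 0.96 (SE 0.11). Tigit went from 67.5 and 71.3 to 41.0 and 47.0 and Cd200 from 21.7 and 32.2 to 14.9 and 15.7. Pecam1, Vsir (VISTA) and Btla rose, by 0.87 (SE 0.10), 0.61 (SE 0.09) and 0.43 (SE 0.10). Of 24 costimulatory and TNF family genes 8 rose and 4 fell (33.3% and 16.7%), the share that fell near that of all genes. Ltb, a membrane lymphotoxin, went from 14.9 and 22.97 to 43.8 and 53.3 FPKM, Tnfsf11 (RANKL) rose by 0.94 (SE 0.14), and Tnfrsf9 (4-1BB) fell from 259 and 216 to 154 and 155. In the list of ubiquitin ligases and other regulators of tolerance 7 of 22 rose and 6 fell (31.8% and 27.3%). The diacylglycerol kinase Dgka was at 75.8 and 82.2 and 134 and 141 FPKM, and the RNase Zc3h12d fell by 0.75 (SE 0.08).

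Receptors and transducers of cytokines, TGF-beta, Notch and Wnt rose more often than they fell. Of all tested genes 20.1% rose and 17.7% fell. Of 32 cytokine receptor and STAT-SOCS genes 13 rose and 3 fell (40.6% and 9.38%), with a median of 0.19. Il12rb1, the shared receptor chain for interleukin-12 and interleukin-23, had 3.76 and 4.46 and 18.2 and 17.8 FPKM. Il10ra rose by 2.27 (SE 0.19) and Ifngr2 by 1.49 (SE 0.15). The interleukin-2 receptor chains parted, with Il2rb at 29.9 and 29.7 and 54.9 and 55.5, Il2ra at 4.86 and 4.67 and 1.07 and 1.29, and Il2rg not past the threshold (0.00). Il21r fell from 128 and 102 to 60.7 and 65.7. Of 17 TGF-beta pathway genes 9 rose and 4 fell (52.9% and 23.5%, both above the shares of all genes), with a median of 0.34. Smad3, the receptor-activated transducer, went from 9.42 and 10.6 to 34.8 and 34.003 FPKM (3.51-fold, log2 fold change 1.81, SE 0.09). The inhibitors Smad7 and Ski rose too, by 1.78 (SE 0.12) and 1.11 (SE 0.11), Smad2 did not pass (0.11), and the ligand Tgfb1 rose while Tgfb3 fell (0.65, SE 0.08, and -1.10, SE 0.19).

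Of 17 Notch pathway genes 6 rose and 1 fell (35.3% and 5.88%, against 20.1% and 17.7% of all genes). Lfng, the glycosyltransferase that tunes Notch to its ligands, had 1.66 and 2.37 and 11.6 and 10.4 FPKM (5.65-fold), with a log2 fold change of 2.50 (SE 0.17). The coactivator Maml2 and the receptor Notch3 rose by 1.63 (SE 0.11) and 1.07 (SE 0.17), and Notch2 and Rbpj did not pass (0.11 and 0.24). Of 15 Wnt and TCF genes 8 rose and 1 fell (53.3% and 6.67%). Axin2, a feedback inhibitor and target of beta-catenin, went from 0.991 and 1.22 to 4.27 and 3.97, the coactivator Bcl9l from 4.24 and 4.78 to 10.8 and 10.9, and Lef1 from 73.9 and 76.0 to 136 and 127. The corepressors Tle5 and Tle4 moved apart, at 0.96 (SE 0.08) and -0.66 (SE 0.08). In the Toll and interleukin-1 receptor list 6 of 14 rose and 1 fell (42.9% and 7.14%). Irak3, an inhibitory kinase homologue, was at 0.181 and 0.266 and 6.92 and 4.65 FPKM, and Tlr12 was at 3.95 and 4.82 and 13.7 and 13.6.

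Lineage factors rose more often than they fell, with 14 of 29 up and 4 down (48.3% and 13.8%, against 20.1% and 17.7% of all genes). Among the 14, Runx3 and Zbtb7b passed the expression filter through the KO label alone and therefore had to differ. Runx3, the factor of the CD8 lineage, was at 0.358 and 0.428 and 1.78 and 2.10 FPKM. Zbtb7b, which encodes ThPOK of the CD4 lineage, had 7 counts in all in the WT-labelled libraries against 279 in the KO-labelled ones, a KO-to-WT ratio of 41.5 (95% exact binomial interval 19.9 to 104, counting error only). The more abundant factors Gata3, Bcl11b and Ets1 went from 10.4 and 10.2 to 34.2 and 29.9, from 16.8 and 25.1 to 50.4 and 50.0 and from 90.4 and 109 to 231 and 209. Irf4 and Ikzf2 (Helios) fell by 0.82 (SE 0.10) and 0.69 (SE 0.11). Of 18 corepressors that work with Bcl6, 5 rose and 1 fell (27.8% and 5.56%), with a median of 0.05. Ncor1 and Bcor, direct partners, did not pass (0.04 and -0.07), whereas Tbl1xr1 and Mta3, subunits of corepressor complexes, rose by 0.73 (SE 0.10) and 0.61 (SE 0.09).

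Antigen presentation and interferon-stimulated genes were higher. Of 22 MHC class I presentation genes 14 rose and 3 fell (63.6% and 13.6%), with a median of 0.39. Of all genes 20.1% rose and 17.7% fell. Nlrc5, the transactivator of class I genes, went from 1.24 and 2.02 to 5.05 and 6.30 FPKM (log2 fold change 1.86, SE 0.19). The immunoproteasome subunits Psmb8, Psmb9 and Psmb10 rose by 0.57 (SE 0.09), 0.69 (SE 0.09) and 0.59 (SE 0.10), and H2-D1 by 0.53 (SE 0.08), while H2-K1 did not pass (0.20). The class I genes are near-identical to each other, so the split of reads between them is uncertain. The 3 that fell were the chaperones Calr and Canx and the proteasome activator Psme1. Of 22 interferon-stimulated genes 16 rose and 1 fell (72.7% and 4.55%), with a median of 0.93. Gbp2, Gbp4 and Gbp7, guanylate-binding proteins that share reads for the same reason, rose by 1.39, 1.05 and 1.17 (SE 0.14, 0.12 and 0.14). The factor Irf1 went from 6.23 and 7.05 to 13.2 and 14.6, and the sensor Ddx58 from 1.90 and 2.38 to 5.98 and 5.16. Ly6e fell by 0.50 (SE 0.09), and Ifit1, Mx1 and Oas1a, classical members, had no row.

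Most tested genes of DNA replication rose. Of 31 tested 24 rose and none fell (77.4% rose, against 20.1% of all genes), with a median of 0.61. The ligase Lig1 went from 5.49 and 5.51 to 15.5 and 13.9 FPKM (log2 fold change 1.44, SE 0.10), and the licensing factor Cdc6 from 0.382 and 0.269 to 1.53 and 1.34 (2.13, SE 0.23). Pcna and Mcm6 did not pass (0.14 and -0.22). Of 26 mitosis genes 14 were below the filter and 12 were tested, of which 7 rose and 1 fell (58.3% and 8.33%). Of 23 cyclins and cell-cycle brakes 13 rose and 4 fell (56.5% and 17.4%, the share that fell near the 17.7% of all genes). Cyclin D2 (Ccnd2) had 16.0 and 12.2 and 72.9 and 60.3 FPKM (4.80-fold, SE 0.14 on the log2 scale), and the late G1 genes Ccne1 and E2f1 rose by 1.53 (SE 0.19) and 1.09 (SE 0.17). The inhibitors Cdkn1b (p27) and Cdkn2d (p19) rose with them, by 0.63 (SE 0.12) and 0.63 (SE 0.11), whereas Myb and Ccng1 fell by 0.59 (SE 0.10) and 0.41 (SE 0.08). Of 25 p53 target and DNA damage genes 4 rose and 3 fell, shares near those of all genes, with Chek1 up by 1.41 (SE 0.21) and Trp53, Mdm2 and Bax not past the threshold (-0.17, 0.15 and 0.08). Of 16 Bcl2 family genes 2 rose and 4 fell, with Bcl2 at 7.92 and 9.04 and 17.6 and 14.8 FPKM and Bid down by 0.50 (SE 0.10).

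The machinery that makes ribosomes and proteins was lower under the KO label. Of 28 Myc and ribosome biogenesis genes 22 fell and 3 rose (78.6% fell against 17.7% of all genes), with a median of -0.53. Npm1, nucleophosmin, the most abundant of those named, had an FPKM of 477 and 399 (WT label) and 269 and 264 (KO label; log2 fold change -0.69, SE 0.11). The RNA polymerase I subunit Polr1b went from 31.0 and 26.1 to 15.4 and 17.2, the nucleolar chaperone Nolc1 from 99.6 and 81.5 to 51.6 and 52.6 and the pseudouridine synthase Dkc1 from 57.5 and 50.0 to 31.2 and 31.5. Myc itself fell by 0.53 (SE 0.10), at 90.5 and 81.3 and 53.9 and 62.8 FPKM. The 3 that rose were Mxd1, Mxd4 and Mxi1, which oppose Myc (0.43, 0.39 and 0.38). The calls of Mxd1 and Mxi1 were lost without WT replicate 1. The 2 groups did not overlap at any gene of this paragraph given by its library values, as was so at 71.1% of all tested genes.

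Amino acid supply followed the same direction. Of 22 genes of ATF4 and aminoacyl-tRNA synthesis 13 fell and 1 rose (59.1% and 4.55%), with a median of -0.33. Of all genes 17.7% fell and 20.1% rose. Atf4 fell by 0.42 (SE 0.09), and the isoleucyl and glutamyl-prolyl tRNA synthetases Iars and Eprs by 0.64 (SE 0.09) and 0.57 (SE 0.09), while the serine synthesis enzymes Phgdh and Psat1 did not pass (-0.06 and -0.22). Of 15 amino acid transporters 6 fell and 2 rose (40.0% and 13.3%). The cationic transporter Slc7a1 went from 52.6 and 49.5 to 21.8 and 25.3 FPKM and Slc1a4, which carries alanine and serine, from 5.77 and 4.72 to 1.95 and 2.24, whereas the glutamine transporters Slc1a5 and Slc38a2 did not pass (0.14 and 0.23). Of 30 constitutive proteasome subunits 18 fell (60.0%) and none rose, with a median of -0.26. Psmd3 and Psmd1 led, at -0.55 (SE 0.11) and -0.53 (SE 0.08). All 3 immunoproteasome subunits named above went up while of the constitutive catalytic subunits Psmb7 fell by 0.32 (SE 0.08), a call lost without WT replicate 1, and Psmb5 and Psmb6 did not pass (-0.17 and -0.08). Of 22 genes of ER chaperones and the unfolded protein response 9 fell and 2 rose (40.9% and 9.09%). Hspa5 (BiP) went from 139 and 123 to 95.1 and 96.1 and Calr from 280.5 and 228 to 158 and 162, and Xbp1 and Ern1 did not pass (0.02 and 0.03). Of 26 nucleotide synthesis genes 10 fell and 6 rose (38.5% and 23.1%, the share that rose near that of all genes). Ctps, of cytidine synthesis, and Impdh2, of guanine nucleotide synthesis, fell by 0.73 (SE 0.09) and 0.65 (SE 0.09), their relatives Ctps2 and Impdh1 did not pass (0.23 and -0.08), and the S-phase enzyme Rrm2 rose by 1.53 (SE 0.18).

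Genes of energy and lipid metabolism fell more often than they rose. Of 30 glycolysis and hypoxia genes 9 fell and 4 rose (30.0% and 13.3%, against 17.7% and 20.1% of all genes). Besides Slc16a3, those that fell most were the regulator Pfkfb3, from 28.5 and 26.1 to 13.3 and 15.4 FPKM, the lactate transporter Slc16a1, from 23.3 and 21.9 to 11.8 and 12.5, and the hexokinase Hk2, from 7.49 and 6.67 to 4.03 and 4.26. Hk1 rose by 0.39 (SE 0.08), and Slc2a1, Ldha and Pkm did not pass (-0.17, -0.34 and 0.11). Of 26 genes of the tricarboxylic acid cycle and fatty acid oxidation 6 fell and 3 rose (23.1% and 11.5%, against 17.7% and 20.1% of all genes). Cpt1a, the entry step of mitochondrial fatty acid oxidation, rose by 0.59 (SE 0.09) and Mdh1 fell by 0.52 (SE 0.09). Of 30 genes of sterol and fatty acid synthesis 8 fell and 2 rose (26.7% and 6.67%). Among them Cyp51 and Idi1 fell by 0.50 (SE 0.10) and 0.51 (SE 0.10), and the exporter Abcg1 rose by 0.95 (SE 0.20). Of 23 oxidative stress and glutathione genes 4 rose and 4 fell (17.4% each), shares near those of all genes, and the master factor Nfe2l2 did not pass (0.02). The largest differences in FPKM among genes that fell were those of mt-Nd1 and mt-Nd2, mitochondrially encoded subunits of complex I, at 3679.6 and 3169 and at 1686 and 1462 in the WT-labelled libraries, and at 2437 and 2024 and at 1224 and 926 in the KO-labelled ones. Their adjusted p-values were 0.00771 and 0.0144, and both calls were lost with limma and without KO replicate 2. The 10 largest falls in FPKM also held Xcl1 and Pdcd1, given elsewhere, and 6 abundant genes, Itm2a, Mif, Rpl4, mt-Nd6, Hspa8 and Eif5a, with log2 fold changes from -0.72 to -0.40. Each of these 6 calls was lost when 1 library was left out, that of mt-Nd6 without KO replicate 2 and those of the others without KO replicate 1.

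Of 23 glycan and sialic acid enzymes 15 rose and 3 fell, with a median of 0.42. St8sia1, the GD3 synthase, went from 5.09 and 8.59 to 25.1 and 22.9 FPKM (1.85, SE 0.18), and Galnt6 and B4galt1, which build O-glycans and lactosamine, rose by 1.10 (SE 0.10) and 0.76 (SE 0.11). Ggta1, which makes the alpha-galactose epitope, fell from 22.4 and 23.1 to 7.07 and 8.80. Of 29 autophagy and lysosome genes 13 rose and 4 fell (44.8% and 13.8%). The lymphocyte cathepsin Ctsw was at 74.1 and 73.3 and 196 and 203. Laptm5, a lysosomal protein of blood cells, and Cd53, a tetraspanin, were among the 10 genes with the largest gain in FPKM, from 252 and 229 to 355 and 369.9 and from 99.0 and 119 to 233 and 180.0. Of 35 Polycomb, DNA methylation and chromatin genes 9 rose and 6 fell, shares near those of all genes, with Dnmt1 up by 0.64 (SE 0.08), Bmi1 down by 0.50 (SE 0.09) and Ezh2 not past the threshold (0.07). Of 21 nutrient and ion transporters 4 rose and 5 fell (19.0% and 23.8%, against 20.1% and 17.7% of all genes), so their shares were near the background. Of 14 circadian clock genes 2 rose and 4 fell (14.3% and 28.6%), and of 14 secreted factors and neuropeptides 6 rose and 6 fell (42.9% each). Tfrc, the transferrin receptor, fell from 59.5 and 56.2 to 39.0 and 36.5, and Bhlhe40 by 1.01 (SE 0.21).

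**Figure D4:**
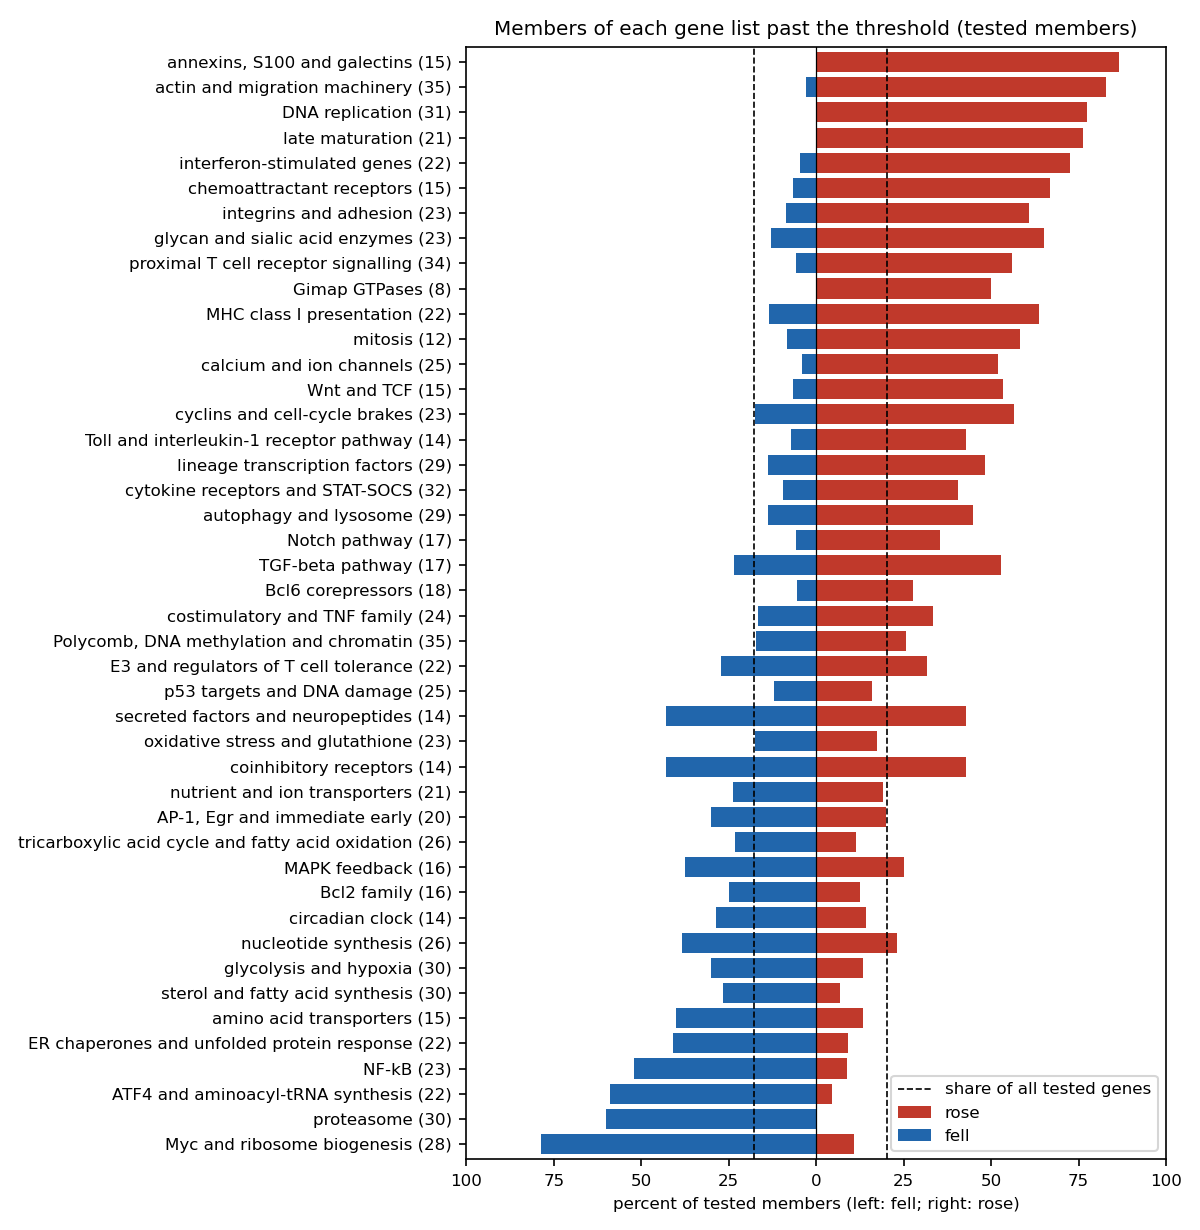
Percent of the tested members of each gene list that rose (right, red) or fell (left, blue) past an adjusted p of 0.05 by edgeR, with the number of tested members in brackets and dashed lines at 20.1% and 17.7%, the shares of all tested genes. Lists of adhesion, migration, maturation, replication and interferon response lie at the top and those of ribosome biogenesis, proteasome and tRNA synthesis at the bottom.

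The replicates of the WT label were not alike in these directions. Among the 1940 genes that rose, WT replicate 2 lay above WT replicate 1 in 1392 (71.8%), and among the 1709 that fell it lay below in 1192 (69.7%), against 50.6% and 49.4% of the genes that did not pass. WT replicate 2 was thus nearer to the libraries labelled KO. Under the KO label the lean was weaker, with KO replicate 1 above KO replicate 2 at 55.4% of genes that rose and below it at 58.7% of those that fell. The lists did this in different measure. The late maturation list had a median centred log2 level of -0.78 in WT replicate 1 and -0.28 in WT replicate 2, against 0.64 and 0.57 in the libraries labelled KO. The annexin, S100 and galectin list had -0.33 and -0.31 against 0.37 and 0.35, and the DNA replication list -0.29 and -0.35 against 0.35 and 0.30. The ribosome biogenesis list had 0.33 and 0.19 against -0.31 and -0.18. In all 11 lists plotted both libraries of 1 label lay on the same side of 0, but the 11 are a selection. Among lists not plotted, the libraries labelled WT lay on opposite sides of 0 for coinhibitory receptors (0.06 and -0.11). They did so too for MAPK feedback (0.09 and -0.02) and the tolerance regulators (-0.09 and 0.03). What the 2 libraries labelled WT differ in, beyond their depth of 23975636 and 15644567 counts, was not tested.

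**Figure D5:**
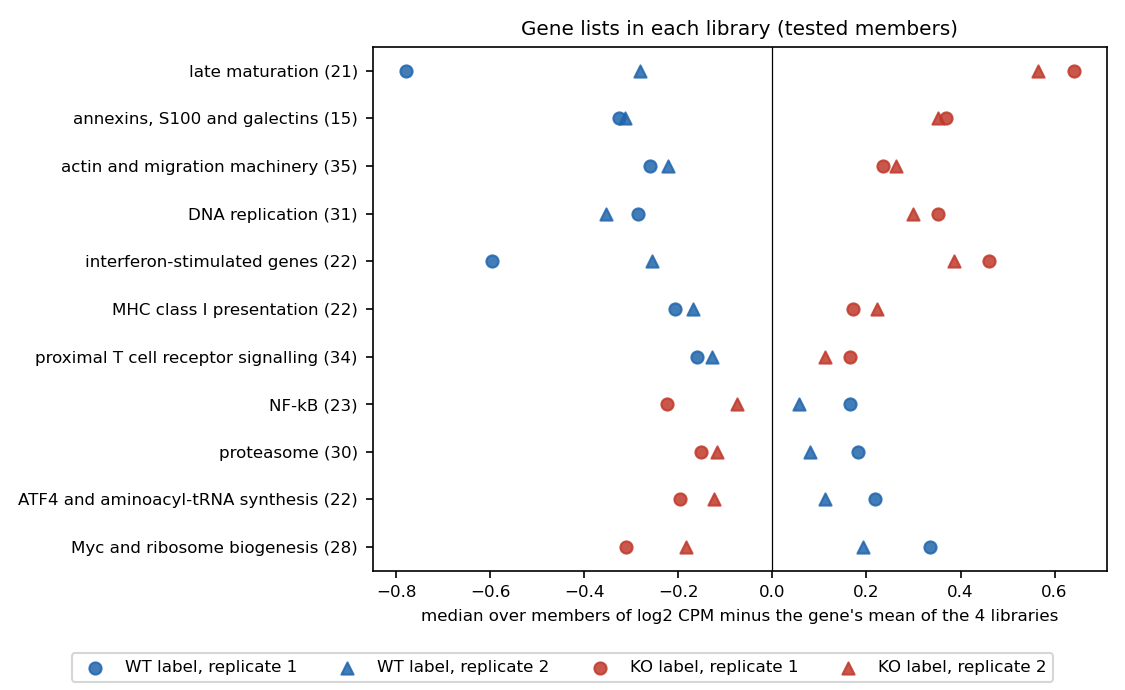
Median over the tested members of 11 gene lists of log2 CPM (counts scaled to library size) minus the gene's mean over the 4 libraries, per library (blue WT label, red KO label, circles replicate 1, triangles replicate 2). WT replicates 1 and 2 are widest apart for the late maturation list, at -0.78 and -0.28, and close together for the annexin, S100 and galectin list.

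The calls moved with gene length and level. From the quintile of genes with the shortest transcripts (by count per FPKM) to the quintile with the longest, the share that rose went from 15.4% to 23.4% and the share that fell from 19.0% to 13.4%. From the lowest to the highest quintile by mean FPKM the share that fell went from 11% to 25.8% and the share that rose from 22.9% to 18.5%. Ribosome biogenesis, proteasome and tRNA synthetase genes are mostly abundant, and the part of level in their direction was not tested. No chromosome stood far apart, with medians from -0.06 (chromosome 12) to 0.05 (chromosome 19).

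Many of the changes differed from those between the same genotypes in the DN cells sorted from mice. Over 10276 genes in all 8 libraries, the effect in vitro differed from that in vivo at 1568 (15.3%) by edgeR's test of the difference, more positive in vitro at 937 and more negative at 631. Leaving out 1 library moved this count to 447 (WT replicate 1 in vitro), 697 (KO replicate 1 in vitro), 746 (KO replicate 2 in vitro) or 874 (KO replicate 1 in vivo), and to between 1104 and 1827 for the others. Of the 20 genes that rose most in vitro 19 were more positive there, and of the 20 that fell most 8 were more negative. The genes were chosen for their effect in vitro, which is part of this difference, so these 2 counts are a description and support nothing. Lfng was at 1.66 and 2.37 and 11.6 and 10.4 FPKM in vitro under the 2 labels, and at 98.8 and 91.3 and at 87.0 and 90.7 in vivo. Klf2 was at 13.2 and 17.5 and 70.7 and 69.4 in vitro, and at 149 and 143 and at 115 and 134 in vivo. Smad3 had 42.4 and 40.2 against 47.8 and 45.8 in vivo, and Egr3 27.7 and 27.4 against 29.1 and 29.6. For these 4 genes every in vivo library lay above every in vitro library, and the difference of effects was 2.56, 2.42, 1.60 and 1.56 on the log2 scale. The in vitro and in vivo libraries were made by different companies (Novogene and BGI), so levels set across them cannot be told apart from that difference, while each effect was taken within its own set.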

How the data were processed

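RNA sequencing libraries of mouse thymocytes were grouped by the labels, 2 per group, with replicate numbers from their titles. RNA was isolated with TRIzol, per the labels' protocols. The deposited tables give, for every gene, the authors' whole-number count and the authors' FPKM value. Trim Galore 0.4.4, Bowtie2, featureCounts, Subread, RSEM and DESeq2 are named, with build mm10, in the submitters' processing notes, which assign them no roles. The strand setting was not given in the sources used here, nor were the annotation and the tool behind each column. The lowest mean count of a listed gene in vitro was 5, so low rows had been removed from the deposited tables. Of 12133 symbols 11974 matched GENCODE vM21 (mm10), used for coordinates.

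Counts of the 4 in vitro libraries were tested with edgeR 4.0.16 (R 4.3.3, quasi-likelihood, TMM normalization, no replicate term), two-sided, at a Benjamini-Hochberg adjusted p under 0.05, for genes that reached an FPKM of 1 in 2 or more libraries. The SE was taken as the size of the log2 fold change divided by the root of F. The difference between in vitro and in vivo effects was tested in 1 fit of the 8 libraries. The in vivo effect alone was tested with the same method and filter on the 4 in vivo libraries. The biological coefficient of variation was 0.0727. The 2 libraries of a group differed beyond sampling noise (chi-square per degree of freedom 9.94 and 9.32), so each was kept as its own replicate. On simulated counts with known changes, the in vitro test found 100 of 100 genes at 2-fold and 100 of 100 at 4-fold, with 12 false calls in 9658. The test of the difference found 83 and 98 of 100, with 14 false calls in 10276.

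The libraries and gene lists were chosen with earlier results of these data known, so list counts are descriptions, and no set test was run. Genes named are Bcl6 and tested genes within 1 Mb, the 20 that rose and 20 that fell most by log2 fold change (past the threshold, groups not overlapping, mean FPKM of at least 10 in the higher group), the 10 with the largest rise or fall in FPKM, list members with the largest changes, and the 6 whose test of the difference gave the smallest adjusted p. The rule passes over predicted genes, pseudogenes and receptor segments. Of the 20 genes that rose most, 1 is not reported here. Other list members named, those that did not pass among them, were chosen after their values were seen. Alternatives were DESeq2 1.42.0, limma 3.58.1 on log2(FPKM + 1) and log2(FPKM + 0.1), other scalings and filters, a replicate block, all 8 libraries in 1 fit, and dropping each library in turn, which assumes that the lone library left varies like the others. Counting intervals are exact binomial at 95%. Outlying samples could not be tested for in groups of 2.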

Additional observations from a re-analysis of the deposited data

Results flagged for a closer look

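The difference between the in vitro and in vivo effects of the label was tested with edgeR (quasi-likelihood over 8 libraries, 2 per group). Adjusted over 10276 genes, it passed at 1568, many other genes named above among them. Of these, 8 are given here by their values. They are the 6 with the smallest adjusted p, and Bcl6 and its neighbour Lpp, chosen by name. The smallest adjusted p, 0.000299, was shared by 6 genes. Lfng had a log2 fold change of 2.50 in vitro and -0.11 in vivo, a difference of 2.56 (SE 0.19). For Klf2 the effects were 2.23 and -0.24, a difference of 2.42 (SE 0.18). Smad3 had 1.81 and 0.17, a difference of 1.60 (SE 0.13), and Egr3 1.69 and 0.08, a difference of 1.56 (SE 0.12). None of these 4 passed the in vivo test, whose adjusted p was 0.747 for Lfng, 0.428 for Klf2, 0.53 for Smad3 and 0.784 for Egr3. That test passed at only 113 of 10227 genes (1.1%), against 37.8% in vitro, so missing it says little about a gene.

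The 2 remaining genes of the 6 passed in both sets. Prr5l, a subunit that associates with the mTORC2 kinase complex, rose by 0.70 in vitro and fell by 2.74 in vivo (adjusted p = 0.0179), a difference of 3.39 (SE 0.26). Its FPKM was 1.93 and 2.24 against 3.52 and 3.10 in vitro, and 10.7 and 15.9 against 1.92 and 2.08 in vivo, so the in vitro libraries of both labels lay near the in vivo libraries labelled KO. Igfbp4, a secreted binding protein for insulin-like growth factors, had 7 counts in all in the WT-labelled in vitro libraries against 343 in the KO-labelled ones, a KO-to-WT ratio of 51.1 (95% exact binomial interval 24.5 to 128, counting error only). In vivo its log2 fold change was 1.40 (adjusted p = 0.0179), and the difference of 4.18 (SE 0.34) rests on that low count. Igfbp4 passed the in vitro filter through the libraries labelled KO alone and therefore had to differ in vitro.

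Bcl6 had a difference of 1.55 (SE 0.26, adjusted p = 0.00518), from 1.45 in vitro and -0.14 in vivo (adjusted p = 0.882 in vivo). Its FPKM in vivo was 11.5 and 13.9 (WT label) and 8.81 and 14.4 (KO label), where the groups overlapped. Lpp had a difference of 2.55 (SE 0.34, adjusted p = 0.00188), from 3.04 in vitro and 0.44 in vivo (adjusted p = 0.532 in vivo). Its FPKM in vivo was 2.26 and 3.61 against 3.35 and 4.68, which also overlapped. Lpp, like Igfbp4, passed the in vitro filter through the libraries labelled KO alone. The cause of these differences was not tested.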

How the results depend on the processing

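With 2 libraries per group, single libraries weigh on every count. The number of genes that rose was 1940 and stayed within 1.5 times of that in each alternative run, and no gene called in the fit reported here had the opposite sign in another. The number that fell was 1709 and ranged from 1108 to 1597 when 1 library was left out, lowest without WT replicate 1. Genes that rose at least 2-fold numbered 331, against 597 without the expression filter, 191 with an FPKM of at least 5 and 168 with limma on log2(FPKM + 1). Those that fell at least 2-fold numbered 112, against 197, 51 and 56 in the same order. The filters change the number of low genes tested, and the pseudocount of 1 shrinks fold changes of low genes. The difference between in vitro and in vivo effects, 1568 genes, ranged from 447 to 1827 when 1 library was left out. Of the in vitro set, dropping WT replicate 1 gave 447, dropping KO replicate 1 gave 697 and dropping KO replicate 2 gave 746. Of the in vivo set, dropping KO replicate 1 gave 874.

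With the replicate number as a block 1699 genes rose and 1460 fell, 336 and 114 of them at least 2-fold, and the difference passed at 1891. The deviations of same-numbered libraries had a correlation of -0.31 over 9658 genes in 2 pairs, and the labels do not say that the numbers mark a shared source. When 1 library was left out, none of the 596 genes of the lists and naming rule that passed the threshold changed sign, while 128 of the 393 that missed it did, as did the medians of 6 of 49 lists, each within 0.073 of 0. Of the genes that missed it, Hbb-bs, a haemoglobin gene, moved from 0.06 to between -1.61 (without KO replicate 2) and 2.59 (without WT replicate 2), and was -0.11 with DESeq2. The median of the tolerance regulators ranged from -0.027 to 0.14 and that of the p53 list from -0.0048 to 0.039, both lowest without KO replicate 1. The cause was not tested. Counts of 0 to 3 limit what can be said of genes such as Igfbp4.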
